A study of Mus musculus with 137 samples.

Results

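Lgr5, Olfm4, Ascl2, Smoc2, Axin2, Rnf43, Znrf3, Sox9, Prom1, and Ephb2 are genes of the intestinal stem cell and of the Wnt pathway, and their transcripts were followed in crypts and villi of the mouse duodenum. The members were taken by gene symbol and are 10 of the 21450 genes in the count table. Axin2 (2 probes), Prom1 (3), and Ephb2 (2) were each read by their most counted probe. Female wild-type B6C3F1 mice drank water with 0, 0.1, 1.4, 5, 20, 60, or 180 ppm hexavalent chromium, Cr(VI), given as sodium dichromate dihydrate, over 7 or 90 days. Tissue of the crypts and of the villi was scraped from adjacent fixed sections of the same duodenum, and RNA was measured by TempO-Seq, in which paired detector oligonucleotides are ligated on a transcript and the ligated products are sequenced. The 71 crypt and 66 villus libraries came from 71 mice, of which 66 gave both. Compartment, concentration, and time make 28 groups of 5 libraries, except for 6 in crypt at 0.1 ppm and 7 days and 4 in untreated villus at 90 days and in villus at 5, 20, and 180 ppm and 7 days. A library held between 1463938 and 7199801 counts (median 3592983). Levels are normalized CPM, that is, counts scaled to a common library size, and are mean ± SD over the libraries of a group. Each gene was read by its own probe, so levels are compared between groups and not between genes. A scraped compartment holds many cell types, and fewer cells of a type cannot be told apart from less RNA per cell.

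Stem cells at the crypt base divide, and their daughters move up the crypt and onto the villus as they differentiate. Wnt ligands from cells below and beside the crypt stabilize beta-catenin in these cells, which then switches on target genes together with TCF factors. Lgr5 is a receptor for R-spondins, which strengthen the Wnt signal, and it marks the stem cells themselves. Olfm4, a secreted glycoprotein, and Smoc2, a secreted matrix protein, are markers of the same cells, and Ascl2 is a transcription factor of stem cell identity. Prom1 is a membrane protein found in stem cells and their early daughters, and Sox9 is a transcription factor of the crypt base. Axin2, a scaffold of the beta-catenin destruction complex, and Rnf43 and Znrf3, membrane ligases that remove Frizzled receptors, are Wnt targets that turn the signal down. Ephb2 is a Wnt-induced receptor that helps keep cells in their place along the crypt.

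In the GENCODE M21 annotation of GRCm38, the genes lie at chr10:115450311-115587780 (Lgr5, minus strand), chr14:79984081-80023139 (Olfm4, plus strand), chr7:142966829-142969264 (Ascl2, minus strand), chr17:14279506-14404790 (Smoc2, plus strand), chr11:108920349-108950783 (Axin2, plus strand), chr11:87662722-87735539 (Rnf43, plus strand), chr11:5276324-5444847 (Znrf3, minus strand), chr11:112782224-112787760 (Sox9, plus strand), chr5:43993620-44102032 (Prom1, minus strand), and chr4:136647539-136835988 (Ephb2, minus strand). Of the 10 genes, 6 matched a RefSeq promoter of GRCm38.p6, and these had 8 promoters. Each promoter is 250 bases before to 50 bases after a start of transcription. The TCF motif CTTTGA was searched on both strands (its reverse complement is TCAAAG), and 5255 of all 32841 promoters of this length, or 16.0%, held it. Of the 8 promoters, 1 of Prom1 held the motif, shortly after the start of transcription. The letters were not in the other 7 windows, which says nothing of TCF binding there or elsewhere. The promoters of 4 members whose levels moved together over the groups are shown on the sense strand of each gene, with the motif in capitals. They lie at chr14:80000052-80000351 (Olfm4, plus strand), chr11:108920099-108920398 (Axin2, plus strand), chr4:136835963-136836262 (Ephb2, minus strand), and chr5:44094719-44095018 (Prom1, minus strand).
Olfm4: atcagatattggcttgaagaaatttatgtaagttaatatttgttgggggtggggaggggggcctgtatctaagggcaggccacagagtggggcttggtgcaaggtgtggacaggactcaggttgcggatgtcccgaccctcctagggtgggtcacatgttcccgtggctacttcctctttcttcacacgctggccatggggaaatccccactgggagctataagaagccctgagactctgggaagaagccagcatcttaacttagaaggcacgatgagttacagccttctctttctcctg
Axin2: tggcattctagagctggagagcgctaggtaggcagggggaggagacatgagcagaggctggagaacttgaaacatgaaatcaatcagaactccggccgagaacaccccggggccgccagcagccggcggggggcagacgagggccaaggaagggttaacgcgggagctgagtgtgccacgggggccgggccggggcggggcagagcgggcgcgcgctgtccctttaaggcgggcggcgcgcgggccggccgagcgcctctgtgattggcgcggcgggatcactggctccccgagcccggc
Ephb2: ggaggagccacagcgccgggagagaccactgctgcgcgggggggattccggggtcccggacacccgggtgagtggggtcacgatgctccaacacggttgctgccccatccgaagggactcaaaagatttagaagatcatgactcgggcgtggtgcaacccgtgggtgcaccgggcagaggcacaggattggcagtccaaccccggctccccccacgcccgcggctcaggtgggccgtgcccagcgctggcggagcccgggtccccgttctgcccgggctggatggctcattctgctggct
Prom1: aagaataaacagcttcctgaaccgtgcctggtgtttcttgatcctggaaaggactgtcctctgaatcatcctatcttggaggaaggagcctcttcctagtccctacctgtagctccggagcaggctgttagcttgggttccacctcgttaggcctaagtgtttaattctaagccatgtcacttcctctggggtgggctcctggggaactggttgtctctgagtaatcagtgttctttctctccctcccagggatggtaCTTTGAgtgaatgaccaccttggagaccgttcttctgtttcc

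All 10 members passed the filter on low counts, but not all were read well. Ascl2 had 0 counts in 99 of the 137 libraries and Sox9 in 85, so no pattern can be read from most of their groups. Lgr5 had a median of 15 counts per library and was at 0 in 5 crypt and 22 villus libraries. Znrf3 was at 0 in 12 libraries, all of them from villi, and Ephb2 was at 0 in 6 villus libraries. The remaining 5 members were at 0 in at most 3 libraries.

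Some libraries stood apart from their group. The labelled compartments were checked by 9 measured Paneth cell markers, antimicrobial genes of the crypt base of which Defa22 was the most abundant, and by 15 enterocyte markers, absorptive genes of the villus of which Fabp2 was the most abundant. No marker of either list was at 0 in every library. Summed Paneth markers had a mean of 15630 CPM over all crypt libraries and 2576 CPM over all villus libraries, and summed enterocyte markers had means of 43120 and 95990 CPM. At 0 ppm and 7 days the villus library of mouse 48 held 21190 CPM of Paneth markers, against 2505 to 9752 CPM in the other 4 untreated villus libraries of that time. The crypt library of mouse 49 held 2479 CPM of Paneth markers and 80060 CPM of enterocyte markers, against 9472 to 33960 CPM and 31730 to 45680 CPM in the other 4 untreated crypts. In these libraries the 10 members summed to 807 CPM (villus of mouse 48) and 325 CPM (crypt of mouse 49). For members compared with the untreated groups at 7 days, values without these 2 libraries stand beside some of the main ones. Values of members and of other genes are with all libraries unless another setting is named. Mouse 90, labelled 0.1 ppm and 7 days, has a number outside the run from 126 to 130 of the other mice of that group, and its libraries were left out in an alternative fit. A crypt library at 60 ppm and 7 days (mouse 448) held 3574 CPM of Brunner gland markers, an untreated crypt library at 90 days (mouse 5) held 146200 CPM of pancreatic acinar markers, and a villus library at 0.1 ppm and 90 days (mouse 84) held 180500 CPM of them. Without these 3 libraries, an alternative chosen after the data were seen, 1 called member lost its call (Prom1 in crypt against villus at 60 ppm and 90 days, adjusted p = 0.107), and the count of members called at 60 ppm and 90 days in crypt was 2 (Ephb2 and Rnf43) in place of 1. The part of these markers in the results was not tested.

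**Figure D1:**
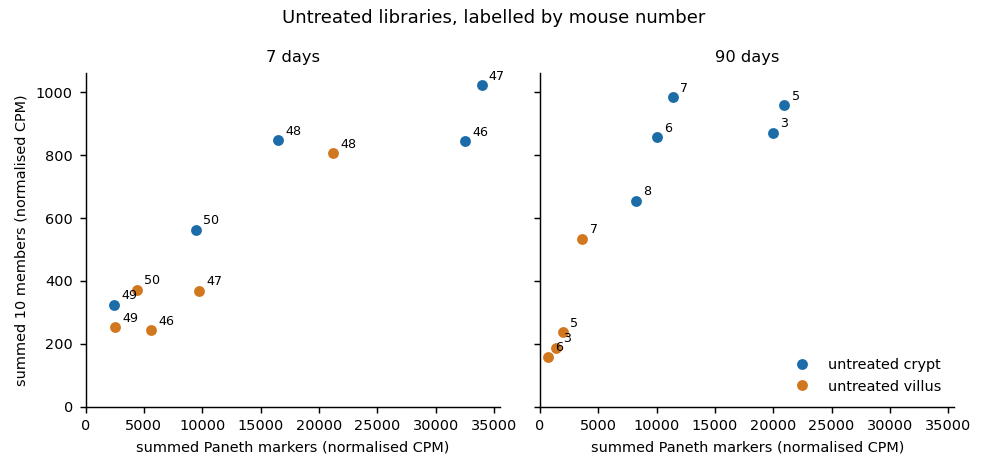
Summed CPM of the 10 members against summed CPM of the Paneth cell markers in each untreated library at 7 days (left) and 90 days (right), each point labeled with its mouse number and colored by compartment. At 7 days the villus library of mouse 48 (807 CPM of members) lies among the crypt libraries and the crypt library of mouse 49 (325 CPM) lies among the villus libraries.

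Over the whole series, 6 of the 10 members were read higher in crypt than in villus in nearly every pair of groups with the same concentration and time. Olfm4 had a mean of 294 ± 109 CPM over the 71 crypt libraries and 52.6 ± 51.7 CPM over the 66 villus libraries, a ratio of 5.58. The ratio was 3.67 for Ephb2, 3.63 for Smoc2, 2.41 for Axin2, 2.33 for Znrf3, and 2.27 for Prom1. The mean CPM of Olfm4, Ephb2, Smoc2, Axin2, and Prom1 was higher in crypt in all 14 pairs, and that of Znrf3 in 13, the exception being 0.1 ppm and 7 days (12.0 ± 6.99 CPM in crypt and 14.9 ± 17.4 CPM in villus). Within mice, crypt was above villus in 65 of 66 mice for Olfm4, Smoc2, and Axin2, in 63 for Ephb2, and in 61 for Znrf3 and Prom1. Lgr5 and Rnf43 were not read higher in crypt throughout. Lgr5 had means of 4.81 ± 3.25 CPM in crypt and 5.45 ± 6.31 CPM in villus, with crypt above villus in 36 of 66 mice and a higher crypt mean in 10 of 14 pairs of groups. Rnf43 had means of 13.9 ± 8.39 CPM in crypt and 20.1 ± 13.1 CPM in villus, with crypt above villus in 18 of 66 mice and a higher crypt mean in 3 of 14 pairs. Ascl2 (0.615 ± 1.13 against 0.443 ± 1.69 CPM) and Sox9 (1.05 ± 1.25 against 0.919 ± 2.50 CPM) were low in both compartments. The crypt mean was higher in 9 of 14 pairs for Ascl2 and in 8 for Sox9, with 1 pair at 0 in both compartments for each.

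Across the 28 group means of log2 CPM, Axin2 followed the mean of the other members most closely (r = 0.911), and Rnf43 ran against it (r = -0.316). The coefficient was 0.837 for Olfm4, 0.828 for Prom1, 0.781 for Ephb2, 0.746 for Znrf3, 0.709 for Smoc2, and 0.367 for Lgr5. These coefficients describe groups that share mice, depth, and the step between compartments, and carry no test.

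**Figure D2:**
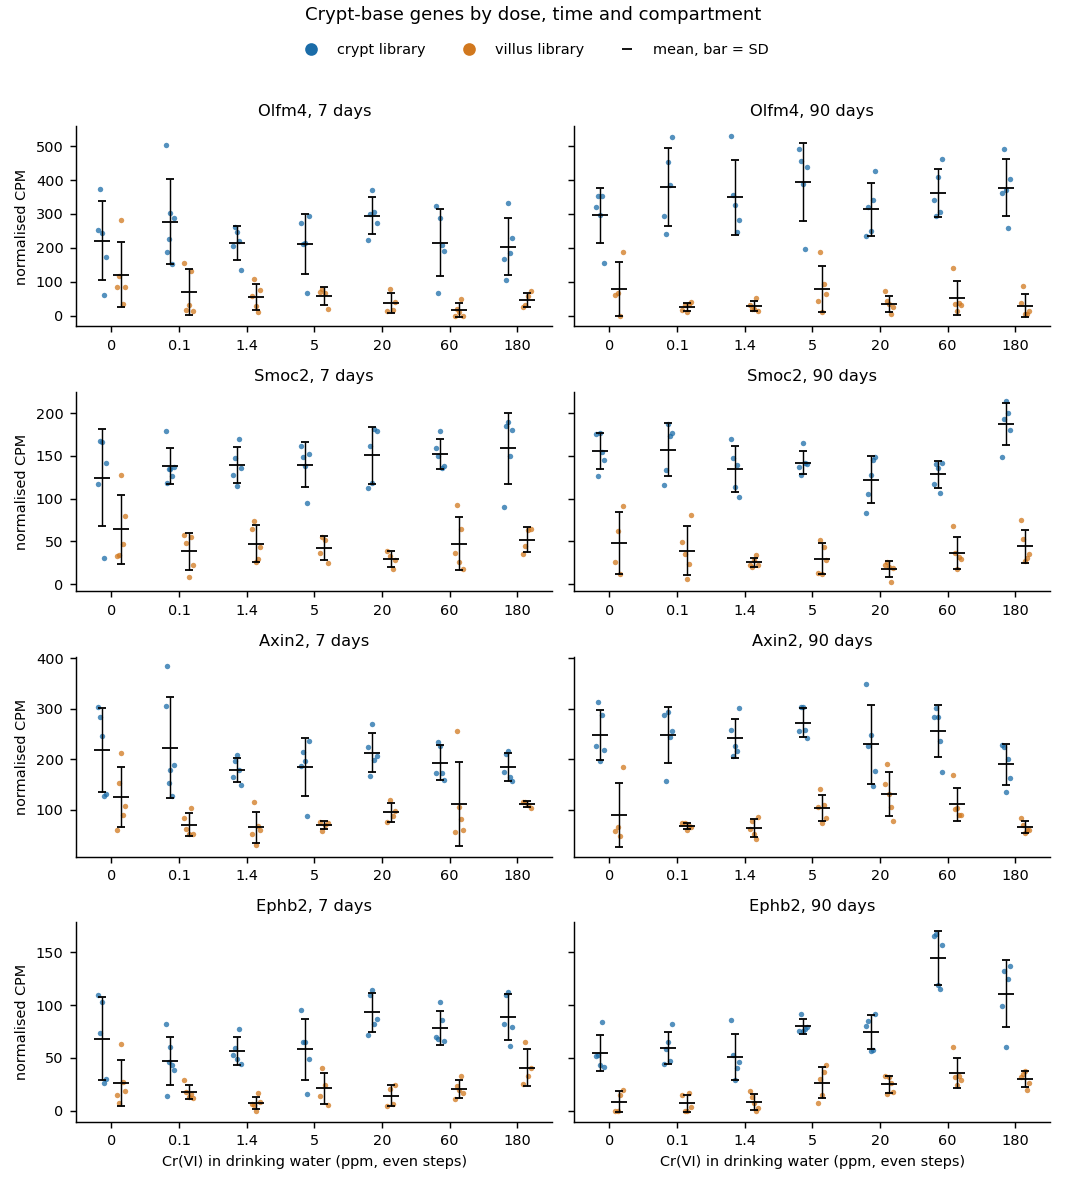
Normalized CPM of Olfm4, Smoc2, Axin2, and Ephb2 in every library at 7 days (left) and 90 days (right) by Cr(VI) in drinking water (ppm, in even steps), with crypt in blue and villus in orange and black bars for mean and SD. The crypt mean lies above the villus mean in all 14 pairs of groups for each of the 4 genes, and Ephb2 in crypt is highest at 60 ppm and 90 days (145 ± 25.6 CPM).

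Comparisons between the compartments of untreated mice ask whether the members marked the crypt without Cr(VI). At 7 days, 0 of 10 were called at an adjusted p under 0.1 (edgeR quasi-likelihood test), with 4 at an unadjusted p under 0.05 and 2 called by DESeq2, and 0.216% of all 26365 probes tested were called higher in crypt. All 10 differences were positive, with a median of 0.83 on the log2 scale against 0.07 for all probes. Olfm4 read 254, 375, 245, 60.2, and 173 CPM in the 5 crypts and 85.0, 117, 283, 35.3, and 84.2 CPM in the 5 villi. The lowest crypt was mouse 49 and the highest villus was mouse 48, so the groups overlapped. Both libraries stood apart by compartment markers, so leaving them out is not independent of the difference between compartments tested here. Without these 2 libraries, 4 of 10 were called higher in crypt, namely Olfm4 (log2 difference 1.71 ± 0.55 SE, adjusted p = 0.0511), Smoc2 (1.61 ± 0.36, adjusted p = 0.00223), Axin2 (1.24 ± 0.30, adjusted p = 0.00545), and Ephb2 (2.22 ± 0.47, adjusted p = 0.000991). Lgr5 then had 4.29 ± 2.24 CPM in 4 crypts and 0.180 ± 0.360 CPM in 4 villi and was not called (adjusted p = 0.167 by edgeR). With all libraries and the mouse as a block, pairing the compartments of each animal, 4 of 10 were called as well, and these were the same genes: Olfm4 (0.96 ± 0.23, adjusted p = 0.00422), Smoc2 (0.97 ± 0.26, adjusted p = 0.0117), Axin2 (0.80 ± 0.23, adjusted p = 0.0249), and Ephb2 (1.36 ± 0.32, adjusted p = 0.00202). The 0.216% of all probes belongs to the main fit, and the share is not given for these 2 alternatives. The change from 0 to 4 members was therefore not set against all probes.

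At 90 days, 6 of 10 members were called higher in untreated crypt and 0 lower, beside 6.98% of all probes called higher in crypt. Ephb2 read 51.9, 52.4, 43.4, 83.6, and 41.6 CPM in the 5 crypts, and 0, 0, 14.9, and 19.9 CPM in the 4 villi. The groups did not overlap, and the log2 difference was 2.51 ± 0.54 (SE; adjusted p = 0.000607). Smoc2 read 176, 126, 177, 154, and 145 CPM in crypt and 25.9, 62.2, 11.5, and 91.8 CPM in villus, again without overlap (1.70 ± 0.38, adjusted p = 0.00125). Axin2 had a log2 difference of 1.47 ± 0.31 (adjusted p = 0.000462), Znrf3 one of 2.41 ± 0.76 (adjusted p = 0.0302), Olfm4 one of 1.90 ± 0.57 (adjusted p = 0.0207), and Prom1 one of 1.40 ± 0.47 (adjusted p = 0.0447). Olfm4 and Znrf3 lost their calls without the villus library of mouse 6 (adjusted p = 0.14 and 0.15), and Prom1 lost its call without the villus library of mouse 3 (adjusted p = 0.24) or of mouse 7 (adjusted p = 0.127). Lgr5 read 0, 11.5, 1.11, 2.31, and 2.95 CPM in crypt and 4.99, 1.58, 0, and 0 CPM in villus, with groups that overlapped and no call (adjusted p = 0.647). Rnf43 was at 18.7 ± 8.48 CPM in crypt and 24.2 ± 13.0 CPM in villus (adjusted p = 0.739).

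In exposed mice the same test was made at each concentration. At 7 days, 4, 5, 6, 5, 5, and 3 of 10 members were called higher in crypt at 0.1, 1.4, 5, 20, 60, and 180 ppm, beside 2.88, 5.58, 5.11, 6.94, 6.91, and 4.28% of all probes. At 90 days the counts were 6, 6, 5, 6, 5, and 6 of 10, beside 9.88, 7.43, 4.95, 4.20, 5.23, and 5.09% of all probes. Olfm4 and Smoc2 were called at each of the 12 combinations of exposed concentration and time. The difference in Olfm4 ran from 1.85 ± 0.57 (5 ppm, 7 days) to 3.83 ± 0.62 (60 ppm, 7 days) on the log2 scale. Ephb2 was not called at 180 ppm and 7 days (1.10 ± 0.42, adjusted p = 0.113), where its villus level was 40.9 ± 17.5 CPM, and was called at the other combinations. Axin2 was likewise not called at 180 ppm and 7 days only (0.73 ± 0.30, adjusted p = 0.142), although its 5 crypts (156 to 217 CPM) lay above its 4 villi (104 to 116 CPM). The call of Ephb2 at 0.1 ppm and 7 days (adjusted p = 0.0534) was lost without both libraries of mouse 90 (adjusted p = 0.127), and that of Prom1 at 60 ppm and 90 days was lost without them as well (adjusted p = 0.0811 with and 0.122 without). Of the calls in exposed mice, 4 were lost in at least 4 other settings of the fit. Prom1 lost its call at 60 ppm and 90 days in 7 of 13 other settings (adjusted p up to 0.284) and at 5 ppm and 90 days in 5 of 13 other settings (adjusted p up to 0.236). Znrf3 lost its call at 5 ppm and 7 days in 5 of 13 other settings (adjusted p up to 0.193) and at 0.1 ppm and 90 days in 4 of 13 other settings (adjusted p up to 0.2). A threshold of 0.05 is among these settings. With the mouse as a block, the call of Znrf3 at 5 ppm and 7 days was lost (adjusted p = 0.082 without and 0.166 with the block).

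Members called lower in crypt were Rnf43 at 20 ppm and 7 days and Lgr5 at 20 and 60 ppm and 90 days. The shares of all probes called lower in crypt there were 4.26% (20 ppm, 7 days), 4.27% (20 ppm, 90 days), and 2.75% (60 ppm, 90 days). Rnf43 read 2.23, 10.01, 14.2, 1.67, and 7.08 CPM in crypt and 27.1, 11.3, 36.8, and 38.2 CPM in villus, a log2 difference of -1.91 ± 0.53 (adjusted p = 0.011). The highest crypt was above the lowest villus. Lgr5 at 60 ppm read 4.27, 3.59, 4.21, 0, and 3.999 CPM in crypt and 9.55, 13.3, 21.0, 27.3, and 14.4 CPM in villus, a log2 difference of -2.29 ± 0.62 (adjusted p = 0.0104), with no overlap. At 20 ppm all 5 villus libraries (13.1 to 20.7 CPM) again lay above all 5 crypt libraries (2.02 to 6.35 CPM), with a log2 difference of -1.87 ± 0.60 (adjusted p = 0.0382). Both Lgr5 calls were lost with the older form of the quasi-likelihood fit (adjusted p = 0.481 at 20 ppm and 0.327 at 60 ppm). The call at 20 ppm was also lost with libraries thinned to the smallest total (adjusted p = 0.13).

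**Figure D3:**
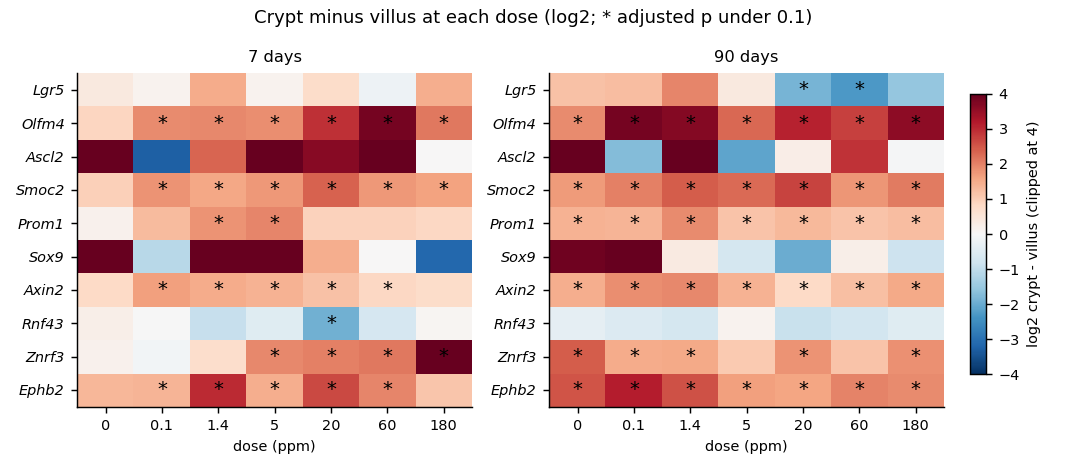
Log2 difference of crypt minus villus for each member (rows) at each concentration in ppm (columns) at 7 days (left) and 90 days (right), red for higher in crypt and blue for higher in villus, clipped at 4, with an asterisk where the adjusted p was under 0.1. Olfm4 and Smoc2 carry an asterisk at all concentrations but 0 ppm at 7 days, and Lgr5 is blue at 20, 60, and 180 ppm at 90 days.

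Comparisons of each concentration with the controls of the same compartment and time ask what changed in the members with Cr(VI). These comparisons share their control libraries. In crypt at 7 days, 0 of 10 members were called at any of the 6 concentrations by edgeR, whereas 0.0152, 0.00379, 0.0152, 0.247, 2.14, and 4.13% of all probes were called at 0.1, 1.4, 5, 20, 60, and 180 ppm. At an unadjusted p under 0.05 there were 1, 1, 0, 1, 0, and 2 members, and DESeq2 called 1 member at 20 ppm and 1 at 180 ppm. Crypt Lgr5 had 3.43 ± 2.73 CPM at 0 ppm and 5.33 ± 3.09 CPM at 180 ppm (log2 difference 0.73 ± 0.76), and crypt Olfm4 had 221 ± 116 and 204 ± 84.3 CPM (-0.12 ± 0.49). For Axin2 the difference at 180 ppm was -0.24 ± 0.27, and for Smoc2 it was 0.34 ± 0.33. Rnf43 at 180 ppm was just outside the threshold (7.53 ± 3.90 against 22.2 ± 16.3 CPM, -1.51 ± 0.52, adjusted p = 0.104). Its control group held mouse 49, with 51.2 CPM against 12.9 to 16.5 CPM in the other 4 crypts. Without the villus library of mouse 48 and the crypt library of mouse 49, the differences at 180 ppm in crypt were 0.51 ± 0.75 for Lgr5, -0.32 ± 0.50 for Olfm4, -0.34 ± 0.28 for Axin2, and 0.14 ± 0.32 for Smoc2. For Rnf43 the difference was then -0.94 ± 0.55 (adjusted p = 0.562). The directions of these 5 members were those with all libraries, and 0 of the 5 were called by edgeR, with 0 at an unadjusted p under 0.05.

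In crypt at 90 days, 1 of 10 members was called in the 6 comparisons, Ephb2 at 60 ppm, and 1, 0, 0, 0, 2, and 1 were at an unadjusted p under 0.05, while 0, 0, 0.00379, 0.535, 14.5, and 6.49% of all probes were called at the rising concentrations. Ephb2 read 166, 167, 119, 115, and 157 CPM at 60 ppm, against 51.9, 52.4, 43.4, 83.6, and 41.6 CPM at 0 ppm. The groups did not overlap, and the log2 difference was 1.40 ± 0.38 (adjusted p = 0.00525). The adjusted p was 0.109 with DESeq2 in place of edgeR and 0.102 with the older form of the fit. This comparison was not rerun with each library left out in turn. At 180 ppm crypt Ephb2 read 99.6, 133, 60.2, 125, and 137 CPM, with 1 library within the range of the controls and no call (1.01 ± 0.37, adjusted p = 0.113). The other 9 members were not called at 60 ppm by edgeR as fitted. Rnf43 was at 9.22 ± 2.75 CPM at 60 ppm and 18.7 ± 8.48 CPM at 0 ppm (-1.07 ± 0.49, adjusted p = 0.167). It was called lower with DESeq2 size factors (adjusted p = 0.0522), with DESeq2 in place of edgeR (0.0685), and with a filter at a mean count of 10 (0.0858). It was also called lower with a separate fit of this compartment and time (0.0223), with the probes of a gene summed (0.0997), and with libraries thinned to the smallest total (0.0768). At 180 ppm Olfm4 differed by 0.34 ± 0.48 and Lgr5 by -0.45 ± 0.83. Depth moved with the 60 ppm crypts, which had 21669 to 23112 probes detected, against 15603 to 20705 in the controls. Scaling by DESeq2 size factors moved the log2 differences of the member and list genes at 60 ppm by a median of -0.28, and the Ephb2 difference was then 1.12 (adjusted p = 0.0321). With libraries thinned to the smallest total the Ephb2 call stood (adjusted p = 0.00944). Summed Paneth markers were at 14120 ± 5896 CPM at 0 ppm, 11440 ± 3491 CPM at 60 ppm, and 12440 ± 4333 CPM at 180 ppm in these crypts. Summed proliferation markers were at 1057 ± 228 CPM at 0 ppm, 1836 ± 217 CPM at 60 ppm, and 1917 ± 392 CPM at 180 ppm, and the 5 libraries at 60 ppm (1534 to 2109 CPM) lay above all 5 controls (803 to 1429 CPM). The part of these markers in the Ephb2 result was not tested.

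In villus at 7 days, 0, 3, 0, 0, 2, and 2 of 10 members were called by edgeR at the rising concentrations (2, 4, 3, 3, 2, and 4 at an unadjusted p under 0.05), beside 0, 1.52, 0.357, 2.61, 6.58, and 5.97% of all probes. At 1.4 ppm the members called were Axin2 (log2 difference -0.96 ± 0.29, adjusted p = 0.0931), Prom1 (-1.66 ± 0.49, adjusted p = 0.0874), and Ephb2 (-1.91 ± 0.55, adjusted p = 0.0816), and all 3 were lower than in the controls. Without the villus library of mouse 48 and the crypt library of mouse 49, 0 of these 3 were called (adjusted p = 0.358, 0.337, and 0.384 by edgeR). Olfm4 at 60 ppm read 0.319, 20.0, 12.1, 50.1, and 0 CPM, against 85.0, 117, 283, 35.3, and 84.2 CPM in the controls. All but 1 of the exposed libraries lay below all controls, and the log2 difference was -3.002 ± 0.62 (adjusted p = 0.000481), or -2.40 (adjusted p = 0.00944) without those 2 libraries. At 180 ppm Olfm4 was at 47.1 ± 21.4 CPM and was not called with all libraries (-1.38 ± 0.57, adjusted p = 0.181) or without these 2 (-0.78 ± 0.58, adjusted p = 0.502). Of the 9 Paneth markers, 6 were called lower in villus at 60 ppm (median log2 difference -1.65 against -0.11 for all probes), as were 3 of 18 proliferation markers. Summed Paneth markers were at 2581 ± 3482 CPM at 60 ppm and 8699 ± 7472 CPM at 0 ppm, or 5576 ± 3068 CPM in the 4 controls without mouse 48. Without the 2 libraries named above, 3 of 9 Paneth markers (median -1.12) and 1 of 18 proliferation markers were called lower at 60 ppm. Their part in the Olfm4 result was not tested. Lgr5 in these villi was not called by edgeR at any concentration. With all libraries its control mean was 2.14 ± 4.395 CPM. The means at 1.4 ppm (1.65 ± 3.25 CPM) and 180 ppm (1.95 ± 1.77 CPM) were lower, and those at the other concentrations were higher. Without the same 2 libraries the controls left read at most 0.720 CPM, with a mean of 0.180 ± 0.360 CPM. Against controls this near the floor, the log2 differences of Lgr5 were positive at every concentration. They ran from 2.835 ± 1.92 (180 ppm, adjusted p = 0.457) to 4.28 ± 1.51 (0.1 ppm, adjusted p = 0.696), again with no call by edgeR.

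Znrf3 fell in villus at 7 days as the concentration rose. Its libraries read 17.3, 17.8, 20.5, 8.93, and 9.84 CPM at 0 ppm (21 to 76 counts), 0, 9.84, 1.58, and 4.74 CPM at 5 ppm, and 0, 4.45, 0, 14.0, and 0.302 CPM at 60 ppm. At 180 ppm all 4 libraries had 0 counts. The fall was called at 60 ppm (log2 difference -2.17 ± 0.68, adjusted p = 0.0427) and at 180 ppm (adjusted p = 7.22e-05). The floor for a gene that was not read was taken as 3 counts over the group. With it, the level at 180 ppm was at least 62.5-fold lower than the mean of all 5 controls. That bound covers counting error only. Without the villus library of mouse 48 the control mean was 13.5 ± 4.73 CPM in place of 14.9 ± 5.16 CPM. The bound would then be lower. A separate fit of this compartment and time left the call at 180 ppm in place and lost the call at 60 ppm (adjusted p = 0.204). Without the villus library of mouse 48 and the crypt library of mouse 49, the adjusted p was 0.0987 at 60 ppm and 0.000209 at 180 ppm. In crypts Znrf3 read 21.0, 16.4, 11.1, 9.85, and 14.0 CPM at 180 ppm, within the spread of the controls (14.5 ± 4.47 against 16.8 ± 5.07 CPM). Summed Paneth markers in villus were at 8699 ± 7472 CPM at 0 ppm and 2777 ± 1685 CPM at 180 ppm, and the 4 controls without mouse 48 were at 5576 ± 3068 CPM. Their part in the villus results was not tested.

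Sox9 was called higher in villus at 180 ppm and 7 days, at the edge of the threshold. It was at 0 in all 5 controls and read 5.24, 4.71, 4.84, and 0 CPM at 180 ppm (0 to 17 counts). The level was at least 19.3-fold higher than in all 5 controls, set at the same floor of 3 counts over the group, with an adjusted p of 0.0996. Without the villus library of mouse 48 that floor is spread over fewer libraries, and the bound would be lower. Each fit that left out 1 of the 5 controls, or 1 of the 3 libraries with counts, put the adjusted p above 0.1, from 0.14 to 0.186. Without the villus library of mouse 48 and the crypt library of mouse 49, it was 0.14.

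**Figure D4:**
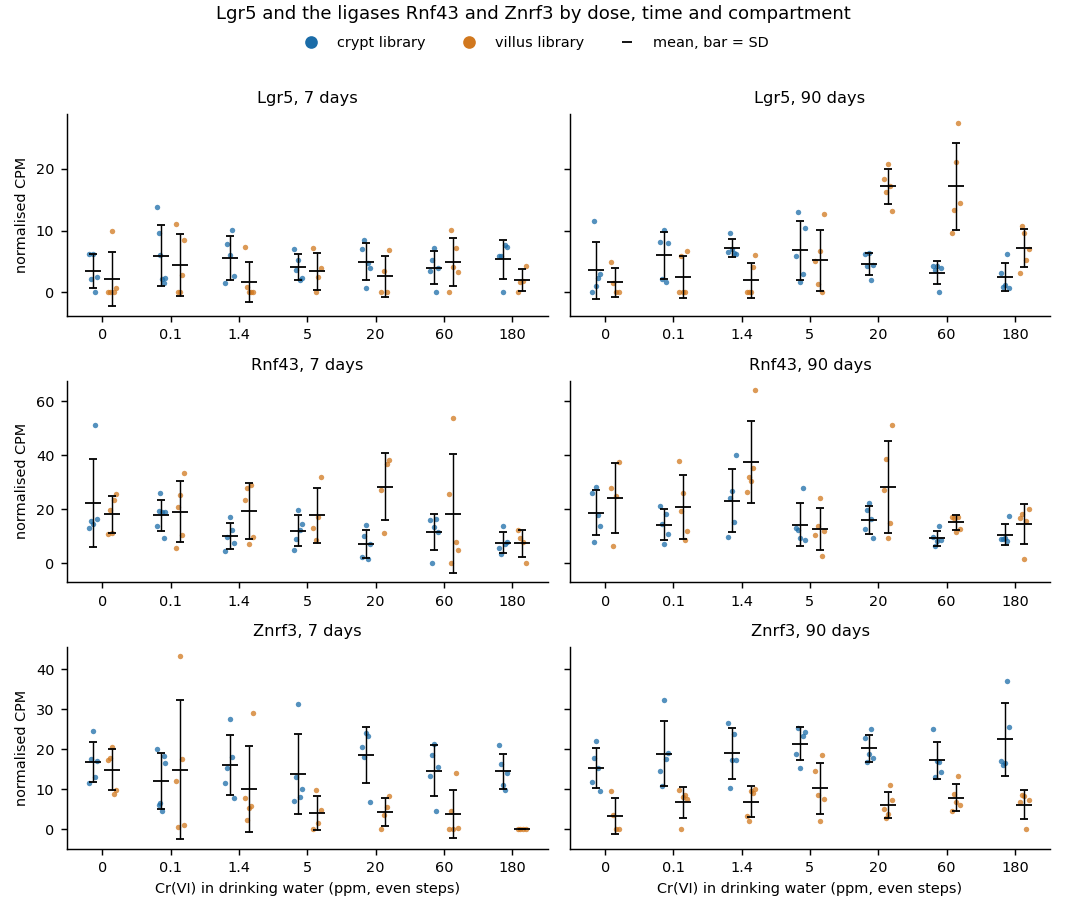
Normalized CPM of Lgr5 and of the ligases Rnf43 and Znrf3 in every library at 7 days (left) and 90 days (right) by Cr(VI) in drinking water (ppm, in even steps), with crypt in blue and villus in orange and black bars for mean and SD. Villus Lgr5 at 90 days stands highest at 20 ppm (17.1 ± 2.80 CPM) and 60 ppm (17.1 ± 7.04 CPM), and villus Znrf3 at 7 days is at 0 in all 4 libraries at 180 ppm.

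In villus at 90 days, Lgr5 and Ephb2 were higher at the upper concentrations. The shares of all probes called in either direction were 0.0341, 0.0341, 10.9, 14.7, 15.5, and 13.8% at the rising concentrations, and 0, 0, 0, 2, 2, and 1 of 10 members were called by edgeR (1, 2, 3, 3, 2, and 3 at an unadjusted p under 0.05). Lgr5 read 4.99, 1.58, 0, and 0 CPM in the 4 controls (0 to 10 counts), 18.4, 16.3, 20.7, 17.2, and 13.1 CPM at 20 ppm (36 to 71 counts), and 9.55, 13.3, 21.0, 27.3, and 14.4 CPM at 60 ppm (46 to 92 counts). Neither exposed group overlapped the controls, and the log2 differences were 3.54 ± 0.95 (adjusted p = 0.00498) and 3.50 ± 0.95 (adjusted p = 0.0053). With the older form of the quasi-likelihood fit neither was called (adjusted p = 0.106 and 0.107). Neither comparison was rerun with each library left out in turn. At 180 ppm Lgr5 read 3.12, 10.7, 9.68, 5.27, and 7.05 CPM, with 1 library under the highest control and no call (2.29 ± 1.09, adjusted p = 0.193). Ordered by mean over the 28 groups, these were the 3 highest levels of Lgr5 in the series (17.1, 17.1, and 7.16 CPM), followed by crypt at 1.4 ppm and 90 days (7.15 ± 1.44 CPM). The first and the second differed by less than their spread, as did the third and the fourth. With all libraries, the lowest means were those of the untreated villus at 90 days (1.64 ± 2.35 CPM) and of the villus at 1.4 ppm and 7 days (1.65 ± 3.25 CPM), which differed by less than their spread. Without the villus library of mouse 48 (9.98 CPM), the untreated villus at 7 days had the lowest mean (0.180 ± 0.360 CPM).

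Ephb2 in the same villi read 0, 0, 14.9, and 19.9 CPM at 0 ppm and 60.0, 32.0, 24.1, 32.6, and 28.9 CPM at 60 ppm, with no overlap (log2 difference 1.92 ± 0.55, adjusted p = 0.00913). At 180 ppm it read 32.1, 35.1, 37.3, 19.4, and 26.2 CPM, with 1 library just under the highest control (1.65 ± 0.56, adjusted p = 0.0388). Without the control of mouse 3 or of mouse 5, each at 0, that call was lost (adjusted p = 0.198 and 0.201), as it was without the 180 ppm library of mouse 485 (adjusted p = 0.103). Smoc2 was lower at 20 ppm, where it read 22.0, 26.2, 20.4, 1.92, and 19.2 CPM against 25.9, 62.2, 11.5, and 91.8 CPM in the controls (-1.35 ± 0.41, adjusted p = 0.0175). The groups overlapped. At 60 and 180 ppm Smoc2 was at 36.5 ± 19.0 and 44.0 ± 19.7 CPM, and at 180 ppm its log2 difference was -0.11 ± 0.39.

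Depth and other markers moved with these villus groups. The 4 controls had total counts of 1667014 to 2678299 and a median of 13986.5 probes detected, against medians of 20192 probes at 20 ppm, 18909 at 60 ppm, and 18210 at 180 ppm. With all libraries thinned to the smallest total, Lgr5 kept its calls at 20 and 60 ppm (adjusted p = 0.0038 and 0.00306) and Ephb2 its call at 60 ppm (adjusted p = 0.000881). Scaling by DESeq2 size factors moved the log2 differences of the member and list genes by a median of -0.34 (20 ppm), -0.38 (60 ppm), and -0.27 (180 ppm), and the Lgr5, Ephb2, and Smoc2 calls in these villi stood. Summed fibroblast markers (8 measured, Col1a1 the most abundant) were at 343 ± 155 CPM in the controls, 487 ± 90.6 CPM at 20 ppm, 690 ± 40.4 CPM at 60 ppm, and 744 ± 139 CPM at 180 ppm. Summed Paneth markers were at 1937 ± 1246 CPM in the controls, 1644 ± 881 CPM at 20 ppm, and 1587 ± 1205 CPM at 60 ppm, with both exposed means below that of the controls. Summed proliferation markers were at 328 ± 213 CPM in the controls, 432 ± 76.6 CPM at 20 ppm, 518 ± 190.5 CPM at 60 ppm, and 432 ± 121 CPM at 180 ppm, and 3 of 18 were called higher at 60 ppm and 1 at 180 ppm. The part of depth and of the fibroblast, Paneth, and proliferation markers in the Lgr5 and Ephb2 results was not tested beyond the thinning above.

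**Figure D5:**
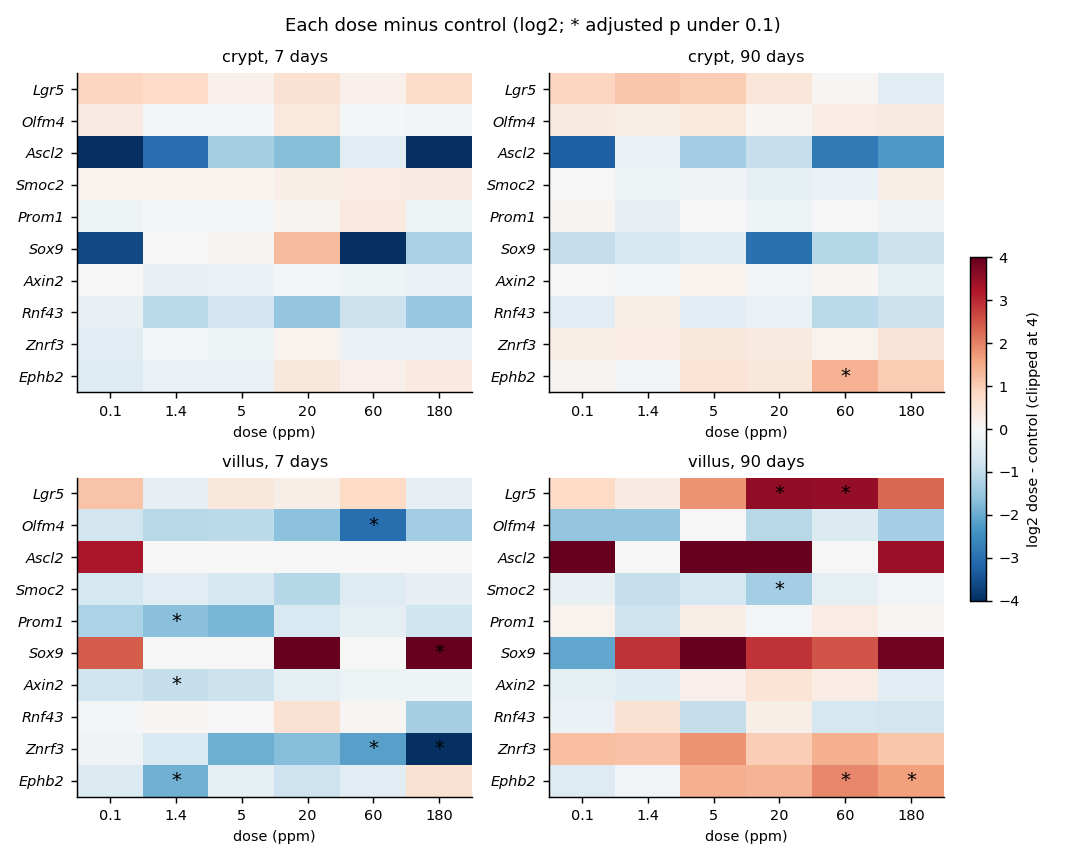
Log2 difference of each concentration minus the control of the same compartment and time for each member (rows), in crypt (top) and villus (bottom) at 7 days (left) and 90 days (right), clipped at 4, with an asterisk where the adjusted p was under 0.1. Crypt carries 1 asterisk (Ephb2, 60 ppm, 90 days), and villus Lgr5 and Ephb2 are red at 20 ppm and above at 90 days. Their mean CPM at 90 days was also above the controls at 5 ppm, without a call (5.18 against 1.64 for Lgr5 and 26.7 against 8.71 for Ephb2).

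Trends over the rank of the 7 concentrations use all groups of a set, and slopes are log2 units per step. In crypt at 7 days 1 of 10 members was called, Rnf43, with a slope of -0.22 ± 0.07 per step (adjusted p = 0.0302), beside 9.47% of all probes. Its group means were 22.2, 17.7, 10.2, 12.0, 7.04, 11.4, and 7.53 CPM at the rising concentrations, and without the crypt library of mouse 49 the slope was -0.16 (adjusted p = 0.23). In crypt at 90 days 2 of 10 were called beside 18.6% of all probes, Ephb2 upward (0.22 ± 0.05, adjusted p = 0.000494) and Rnf43 downward (-0.16 ± 0.06, adjusted p = 0.0871). Crypt Ephb2 had group means of 54.6, 59.5, 51.1, 80.0, 74.4, 145, and 111 CPM. The Rnf43 trend at 90 days was lost when mouse 3 or 6 (0 ppm) or mouse 483, 484, 485, or 488 (180 ppm) was left out (adjusted p from 0.11 to 0.191).

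In villus at 7 days 2 of 10 were called beside 14.0% of all probes, and both fell with all libraries. Znrf3 had a slope of -1.13 ± 0.18 (adjusted p = 4.16e-07), over group means of 14.9, 14.9, 10.1, 4.04, 4.41, 3.75, and 0 CPM, and of -1.11 ± 0.19 (adjusted p = 1.75e-06) without the villus library of mouse 48 and the crypt library of mouse 49. Olfm4 had a slope of -0.33 ± 0.08 (adjusted p = 0.00162), over group means of 121, 70.3, 56.6, 58.9, 37.7, 16.5, and 47.1 CPM, and kept its call without the villus library of mouse 48 and the crypt library of mouse 49 (-0.27, adjusted p = 0.0142). Ephb2 was not called with all libraries (0.11 ± 0.06, adjusted p = 0.296) and was called upward without those 2 (0.19 ± 0.07, adjusted p = 0.0491), so that 3 of 10 members were then called, 2 downward and 1 upward. The 14.0% of all probes is from the fit with all libraries, and the share without those 2 is not given. With the concentration itself in place of its rank, the Olfm4 trend was not called (adjusted p = 0.318). In villus at 90 days 2 of 10 were called beside 26.3% of all probes, and both rose. Lgr5 had a slope of 0.55 ± 0.13 (adjusted p = 0.000207), over group means of 1.64, 2.51, 2.005, 5.18, 17.1, 17.1, and 7.16 CPM. Ephb2 had a slope of 0.40 ± 0.07 (adjusted p = 2.93e-06), over group means of 8.71, 6.94, 8.38, 26.7, 24.9, 35.5, and 30.1 CPM.

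Whether the effect of 180 ppm differed between compartments or times was tested as an interaction. Between compartments 0 of 10 members were called at 7 days by edgeR (2 at an unadjusted p under 0.05, 1 by DESeq2, and 0.00379% of all probes) and 0 at 90 days (1 at an unadjusted p under 0.05, and 0.224% of all probes). Znrf3 at 7 days, which was at 0 in villus and not in crypt, had the smallest p of the members (adjusted p = 0.137). With the mouse as a block, pairing the compartments of each animal, Znrf3 (adjusted p = 0.00993) and Olfm4 (log2 1.34 ± 0.37, adjusted p = 0.0533) were called at 7 days and Olfm4 (1.47 ± 0.40, adjusted p = 0.043) at 90 days. Without the villus library of mouse 48 and the crypt library of mouse 49, the Olfm4 interaction at 7 days was not called with the block (0.90 ± 0.40, adjusted p = 0.83, an alternative chosen after the data were seen) or without it (0.47 ± 0.77, adjusted p = 0.982), and Znrf3 was called with the block (adjusted p = 0.0227) and not without it (adjusted p = 0.154). The Olfm4 interaction at 90 days was then 1.54 ± 0.40 with the block (adjusted p = 0.0251). All these Olfm4 interactions were positive, that is, the log2 difference from the controls was higher in crypt than in villus. Lgr5 at 90 days had an interaction of -2.74 ± 1.40 without the block (adjusted p = 0.625). Between times, 0 of 10 members were called in crypt (0 at an unadjusted p under 0.05, and 0.110% of all probes) and 1 of 10 in villus (0.971%). That gene was Znrf3 (adjusted p = 0.009, and 0.0246 without those 2 libraries), at 0 CPM in all 4 libraries at 180 ppm and 7 days and at 6.71, 8.61, 8.29, 0, and 7.33 CPM at 180 ppm and 90 days. The 90-day controls of Znrf3 read 9.47, 3.69, 0, and 0 CPM, lower than the 7-day controls in mean (3.29 against 14.9 CPM, adjusted p = 0.11 for that difference).

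The variation of Lgr5 among crypt libraries of the same group was set beside that of the other members. Deviations of log2 CPM from the group mean were correlated over 71 libraries for 11 relations (the 9 other members and the summed Paneth and enterocyte markers), with permutation within groups. By Pearson's r, 4 of 11 were past an adjusted p of 0.1, each at 0.0519, namely Axin2 (r = 0.345, rho = 0.356), Znrf3 (r = 0.302, rho = 0.28), the Paneth markers (r = 0.321, rho = 0.264), and Rnf43 (r = -0.365, rho = -0.338). The unadjusted permutation p was 0.00486 for Axin2, 0.0189 for Znrf3, 0.0179 for the Paneth markers, and 0.0148 for Rnf43. By Spearman's rho, Axin2 and Rnf43 were past the threshold (adjusted permutation p = 0.0389 for each), and Znrf3 and the Paneth markers were not (adjusted permutation p = 0.114 for each). Without the 2 libraries farthest from the median of Lgr5, r was 0.287 for Axin2, 0.19 for Znrf3, 0.168 for the Paneth markers, and -0.268 for Rnf43. Without the crypt library of mouse 49, over 70 libraries, Axin2 (r = 0.288) and Sox9 (r = -0.3) were past the threshold, each at an adjusted permutation p of 0.0752. Rnf43 (r = -0.317, adjusted permutation p = 0.13), Znrf3 (r = 0.293, 0.102), and the Paneth markers (r = 0.188, 0.221) were then not. By Spearman's rho without that library, 5 relations were past the threshold, namely Axin2, Rnf43, and the enterocyte markers (rho = 0.303, -0.297, and 0.335, adjusted permutation p = 0.076 for each) and Znrf3 and Sox9 (rho = 0.274 and -0.245, adjusted permutation p = 0.0971 for each). Sox9 was at 0 counts in 32 of the 71 crypt libraries, so no pattern was read from its coefficients. With all libraries, Olfm4 (r = 0.139), Smoc2 (r = 0.225), and Prom1 (r = 0.103) were not past the threshold. Lgr5 was read with few counts per library, and these values carry its counting error.

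The genes whose 28 group means were most like the mean pattern of the members, among 12811 probes with a mean CPM of at least 5, were Slc1a3 (r = 0.941), a glutamate transporter, Cdkal1 (r = 0.933), an enzyme of tRNA modification, Scn7a (r = 0.926), a sodium channel, Synpo2 (r = 0.923), an actin-binding protein of muscle, and Hmmr (r = 0.921), a mitotic spindle protein. Each had a higher mean in crypt, for example Synpo2 with 389 CPM against 149 CPM in villus. Most like Olfm4 alone were Gm4070 (r = 0.963), Dpt (r = 0.944), a matrix protein, and Defa24 (r = 0.943), a Paneth cell defensin. Most like Lgr5 alone were Rbm39 (r = 0.772), a splicing factor, Cdc6 (r = 0.747), which licenses replication origins, and Bmi1 (r = 0.741), a Polycomb protein also used as a stem cell marker.

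Other genes of stem cells and of Wnt signaling were read from lists. As the background of their counts, 1.05, 3.80, 2.50, and 8.90% of all probes were called higher and 3.08, 2.69, 3.46, and 4.95% lower at 180 ppm in crypt at 7 days, crypt at 90 days, villus at 7 days, and villus at 90 days. Over the trends in the same order of compartments and times, 3.69, 10.7, 5.86, and 17.0% rose and 5.78, 7.86, 8.19, and 9.27% fell. Of 15 other stem cell genes, 5 were called higher in untreated crypt at 90 days (median 1.20 against 0.20 for all probes), among them Slc12a2, a chloride cotransporter of dividing crypt cells (108 against 13.1 CPM, 3.08 ± 0.55). At 180 ppm 1 was called in villus at 90 days (Bmi1, 59.9 against 23.3 CPM), and 0 were called by edgeR (0, 2, and 5 at an unadjusted p under 0.05 and 0, 0, and 0 by DESeq2) in crypt at 7 days, crypt at 90 days, and villus at 7 days. Over the trend in crypt at 90 days 1 rose (Bmi1) and 3 fell, including Rgmb (-0.27 ± 0.07 per step) and Lrig1 (-0.20 ± 0.07), a brake on growth factor receptors. Of 15 other Wnt targets, 3 were called higher in untreated crypt at 90 days, namely Nkd1 (28.2 against 3.83 CPM), Myc (44.4 against 9.07 CPM), and Bambi. Cd44, a hyaluronan receptor, was higher at 180 ppm and 90 days in crypt (177 against 65.1 CPM, 1.44 ± 0.34, adjusted p = 0.00296) and in villus (98.3 against 36.0 CPM, 1.42 ± 0.40, adjusted p = 0.0096). Sp5, a transcription factor, was lower at 180 ppm in crypt at 7 days (5.86 against 17.5 CPM, adjusted p = 0.0873) and in villus at 90 days (3.18 against 17.8 CPM, adjusted p = 0.00599). Over all 15 targets, 3 rose and 1 fell in villus at 180 ppm and 90 days, where 8.90% of all probes rose and 4.95% fell.

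Among 10 tested Wnt ligands and R-spondins, Wnt2b, a ligand made by stromal cells, was lower at 180 ppm and 7 days in crypt (13.7 against 37.0 CPM, -1.46 ± 0.38, adjusted p = 0.0129) and in villus (8.09 against 29.2 CPM, -1.82 ± 0.47, adjusted p = 0.00905). No other gene of the list was called in those comparisons, and 0 were called by edgeR (0 and 1 at an unadjusted p under 0.05 and 0 and 1 by DESeq2) at 180 ppm and 90 days in crypt and villus. Of 14 tested Wnt receptors, Lrp5, a coreceptor, was higher in crypt at 180 ppm at 7 days (176 against 106 CPM, 0.72 ± 0.20) and 90 days (178 against 119.6 CPM, 0.57 ± 0.19). Fzd4, a Frizzled receptor, was lower in villus at 180 ppm and 7 days (11.7 against 38.1 CPM, adjusted p = 0.00757), and Ryk, a Wnt coreceptor, was higher in villus at 180 ppm and 90 days (71.2 against 33.3 CPM, 1.04 ± 0.30, adjusted p = 0.0129). No other receptor was called by edgeR in these 4 comparisons. Of 17 beta-catenin pathway proteins, 2 were called higher and 1 lower in crypt at 180 ppm and 90 days (median log2 difference -0.19 against -0.0045 for all probes), and 2 higher and 0 lower in villus (-0.15 against 0.11). Ctnnb1, beta-catenin itself, and Csnk1a1, a kinase that marks it for destruction, were higher in both compartments, and Bcl9l, a coactivator of beta-catenin, was lower in crypt (54.6 against 90.3 CPM, -0.72 ± 0.26, adjusted p = 0.0972). Ctnnb1 was at 445 against 292 CPM in crypt (0.61 ± 0.19, adjusted p = 0.0379) and 488 against 274 CPM in villus (0.83 ± 0.20, adjusted p = 0.00204). Of 4 tested Wnt antagonists, Sfrp1 and Sfrp5, secreted Wnt binders, fell over the trend in crypt at 90 days (-0.28 ± 0.06 and -0.23 ± 0.08 per step), and 0 were called by edgeR (0, 1, 0, and 0 at an unadjusted p under 0.05 and 0, 0, 0, and 0 by DESeq2) at 180 ppm in crypt at 7 and 90 days and villus at 7 and 90 days. Of 17 BMP genes, whose signal opposes Wnt along the crypt, 8 fell and 0 rose over that trend (beside 7.86% and 10.7% of all probes), including Bmp5 (-0.23 ± 0.05) and Bmp2 (-0.18 ± 0.04). Of 14 Notch genes, 0 were called by edgeR (1 and 0 at an unadjusted p under 0.05 and 0 and 0 by DESeq2) at 180 ppm in crypt at 7 and 90 days.

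Genes of dividing cells were read in the same libraries. Of 18 proliferation markers, 13 were called higher in untreated crypt at 90 days. Over the trend, 10 rose and 0 fell in crypt at 7 days (median slope 0.13 against -0.01 for all probes), and 9 rose and 0 fell in crypt at 90 days (0.14 against 0.01). In villus 0 rose and 2 fell at 7 days (-0.02 against -0.05), and 9 rose and 0 fell at 90 days (0.21 against 0.07). Plk1, a mitotic kinase, was at 137 against 42.8 CPM at 180 ppm and 90 days in crypt (1.67 ± 0.40, adjusted p = 0.00397). The median slope of the 10 members was -0.01 at 7 days and -0.03 at 90 days in those crypts. Of 13 tested genes linked to epithelial regeneration, 6 were called higher in villus at 180 ppm and 90 days, such as Ereg, a growth factor of the EGF family (48.0 against 2.20 CPM, 4.25 ± 0.74), and Ly6a, a surface marker of regenerating epithelium (15.5 against 0.669 CPM, 4.27 ± 1.01). Areg, a related growth factor, was higher at 180 ppm in crypt at 90 days (25.1 against 3.56 CPM, 2.73 ± 0.67). The difference between the lists and the members was not tested.

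Cell type markers in the same libraries give the setting of these values. Of 15 enterocyte markers, 9 were lower in crypt at 180 ppm and 7 days and 7 at 90 days, and the summed level in crypt was 45330 ± 20160 CPM at 0 ppm and 14730 ± 4237 CPM at 180 ppm at 7 days. The 0 ppm mean includes the crypt library of mouse 49, which lay above the other untreated crypts of that time in these markers and raises it. Of 9 Paneth markers, 8 were higher in untreated crypt at 90 days, 0 were called by edgeR (0 and 2 at an unadjusted p under 0.05 and 0 and 0 by DESeq2) in crypt at 180 ppm at 7 and 90 days, and 4 were lower in villus at 180 ppm and 7 days. Without the villus library of mouse 48 and the crypt library of mouse 49, 1 of 9 Paneth markers was lower there, and 2 of 18 proliferation markers were higher (with all libraries, 0). Of 6 goblet cell markers, 3 were higher in crypt and 2 in villus at 180 ppm and 90 days. Of 9 enteroendocrine markers, 3 were lower in crypt at 180 ppm and 90 days, and of 7 tuft cell markers 0 were called by edgeR (1 at an unadjusted p under 0.05 and 0 by DESeq2) there. Of 8 fibroblast markers, 5 were higher in untreated crypt at 90 days, and 4 were higher in villus at 180 ppm and 90 days. Smooth muscle markers were lower at 180 ppm and 90 days in crypt (2 of 7) and villus (4 of 7). At 180 ppm and 90 days, of 6 endothelial markers 0 were called by edgeR (1 and 0 at an unadjusted p under 0.05 and 0 and 0 by DESeq2) in crypt and villus, and of 12 immune cell markers 1 was lower in crypt. Of 4 Brunner gland markers, 1 was lower in villus at 180 ppm and 90 days, and of 12 pancreatic acinar markers 0 were called by edgeR (0, 0, 0, and 0 at an unadjusted p under 0.05 and 0, 0, 0, and 0 by DESeq2) at 180 ppm in crypt at 7 and 90 days and villus at 7 and 90 days. Their part in the levels of the members was not tested.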

How the data were processed

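RNA of scraped crypt and villus tissue from fixed duodenal sections was profiled by TempO-Seq in 137 libraries. The deposited values are whole-number counts per probe, made by the authors from sequencing reads. The submitters' notes name bcl2fastq 2.17.1.14 and Bowtie, and the build of the probe set is not given in the sources used here. The authors removed libraries of low depth or low gene diversity before deposit, so such libraries were not analysed here. Ligation products carry no molecular identifiers, so counting intervals and floors cover counting error only.

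Groups and mouse numbers came from the sample labels. Counts of 30146 probes were fitted as deposited in a single model of 28 groups with edgeR 4.0.16 (R 4.3.3; filterByExpr, TMM scaling, glmQLFit and glmQLFTest), which left 26365 probes of 19020 genes. Tests were two-sided, p-values were adjusted by Benjamini-Hochberg over all probes tested, and a probe was called at an adjusted p under 0.1. Standard errors are the log2 difference divided by the square root of the F statistic. Log2 CPM for correlations used a prior count of 2, and permutations were made within groups. The fit was tested on simulated data before use. Alternatives, run on the exposed as on the untreated comparisons except where the design barred it, were DESeq2 1.42.0, its size factors within edgeR, other filters, libraries thinned to equal depth, probes summed by gene, separate fits within a compartment and time, and libraries left out (singly in the untreated and 180 ppm groups). Crypt and villus with the same mouse number came from the same animal, so a fit with the mouse as a block was also made for the comparisons between compartments. Over the 66 pairs, the deviations of crypt and villus from their group means correlated at a median r of 0.0579 (from -0.102 to 0.316, and over 0.1 in 14). The mice are separate animals, each giving at most 1 library per compartment. Positions were read from GENCODE M21, promoters from RefSeq. Genes of other lists were named from the 4 with the smallest adjusted p in a comparison, and genes of like pattern were those with the highest Pearson r over the 28 group means. The members and the gene lists were chosen with earlier results of these data known, so none of them is independent support.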

Additional observations from a re-analysis of the deposited data

Results flagged for a closer look

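Among 8 members and 28 groups, 224 sets of libraries were checked for a single library far from the rest of its group by Dixon's criterion, and 27 met it. Chance meets it in about 1 of 20 groups where values are normally distributed. That was not tested for these CPM, some of which are at 0, so no excess is read from the 27. Values are CPM. No cause was tested. Lgr5 read 0 in crypt at 180 ppm and 7 days (the others 5.83 to 7.63), 11.5 in crypt at 0 ppm and 90 days (the others 0 to 2.95), 9.65 in crypt at 1.4 ppm and 90 days (the others 6.23 to 7.08), 0 in crypt at 60 ppm and 90 days (the others 3.59 to 4.27), 9.98 in villus at 0 ppm and 7 days (the others 0 to 0.720), and 7.42 in villus at 1.4 ppm and 7 days (the others 0 to 0.809). Olfm4 read 157 in crypt at 0 ppm and 90 days (the others 297 to 354) and 141 in villus at 60 ppm and 90 days (the others 13.0 to 37.7). Smoc2 read 179 in crypt at 0.1 ppm and 7 days (the others 119 to 136) and 1.92 in villus at 20 ppm and 90 days (the others 19.2 to 26.2). Axin2 read 255 in villus at 60 ppm and 7 days (the others 54.9 to 105), 184 in villus at 0 ppm and 90 days (the others 48.3 to 65.4), and 168 in villus at 60 ppm and 90 days (the others 88.8 to 102). Rnf43 read 51.2 in crypt at 0 ppm and 7 days (the others 12.9 to 16.5), 0 in crypt at 60 ppm and 7 days (the others 11.6 to 16.3), 28.03 in crypt at 5 ppm and 90 days (the others 8.43 to 13.0), 17.3 in crypt at 180 ppm and 90 days (the others 8.04 to 9.34), 64.3 in villus at 1.4 ppm and 90 days (the others 26.5 to 35.2), and 1.38 in villus at 180 ppm and 90 days (the others 15.5 to 20.0). Znrf3 read 31.2 in crypt at 5 ppm and 7 days (the others 6.97 to 13.1), 29.0 in villus at 1.4 ppm and 7 days (the others 2.43 to 7.73), 0 in villus at 0.1 ppm and 90 days (the others 7.46 to 9.77), and 0 in villus at 180 ppm and 90 days (the others 6.71 to 8.61). Prom1 read 29.2 in villus at 1.4 ppm and 90 days (the others 9.30 to 15.1). Ephb2 read 83.6 in crypt at 0 ppm and 90 days (the others 41.6 to 52.4), 92.0 in crypt at 5 ppm and 90 days (the others 75.2 to 79.7), and 60.0 in villus at 60 ppm and 90 days (the others 24.1 to 32.6). The effect of 180 ppm on villus Znrf3 also differed between 90 and 7 days, with a log2 difference between the effects of 9.90 (edgeR, adjusted p = 0.009), and its size rests on a group with 0 counts and is no bound.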

How the results depend on the processing

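The counts of members called depend on the settings below, with the count reported above in parentheses, and the cause of each change was not tested. The shares of all probes called that are reported above belong to the main fit and are not given for these settings. With scaling by DESeq2 size factors, the count was 1 for villus at 180 ppm and 7 days (2), 2 for crypt at 60 ppm and 90 days (1) and villus at 180 ppm and 90 days (1). With DESeq2 in place of edgeR, the count was 1 for crypt at 20 ppm and 7 days (0), crypt at 180 ppm and 7 days (0), villus at 5 ppm and 7 days (0), villus at 20 ppm and 7 days (0), villus at 180 ppm and 7 days (2), villus at 5 ppm and 90 days (0), and the compartment interaction at 7 days (0), 2 for untreated crypt against villus at 7 days (0), 3 for villus at 180 ppm and 90 days (1). With no filter beyond 1 count, the count was 1 for villus at 180 ppm and 7 days (2). With a filter at a mean count of 10, the count was 1 for untreated crypt against villus at 7 days (0), crypt at 180 ppm and 7 days (0), crypt at 180 ppm and 90 days (0), villus at 5 ppm and 7 days (0), villus at 180 ppm and 7 days (2), villus at 5 ppm and 90 days (0), and the compartment interaction at 7 days (0), 2 for crypt at 60 ppm and 90 days (1), villus at 20 ppm and 7 days (0), and villus at 180 ppm and 90 days (1). With the older form of the quasi-likelihood fit, the count was 0 for crypt at 60 ppm and 90 days (1) and villus at 1.4 ppm and 7 days (3), 1 for villus at 60 ppm and 7 days (2), villus at 20 ppm and 90 days (2), villus at 60 ppm and 90 days (2), the crypt trend at 90 days (2), and the compartment interaction at 7 days (0). With a separate fit for each compartment and time, the count was 0 for villus at 1.4 ppm and 7 days (3), 1 for crypt at 180 ppm and 7 days (0), villus at 60 ppm and 7 days (2), and villus at 180 ppm and 7 days (2), 2 for crypt at 60 ppm and 90 days (1), crypt at 180 ppm and 90 days (0), and the crypt trend at 7 days (1), 68 for genes of the other lists at 180 ppm (43). With the probes of a gene summed, the count was 1 for untreated crypt against villus at 7 days (0) and villus at 1.4 ppm and 7 days (3), 2 for crypt at 60 ppm and 90 days (1) and the crypt trend at 7 days (1). With libraries thinned to the smallest total, the count was 1 for crypt at 180 ppm and 90 days (0), villus at 5 ppm and 7 days (0), and the compartment interaction at 7 days (0), 2 for crypt at 60 ppm and 90 days (1), villus at 20 ppm and 7 days (0), villus at 5 ppm and 90 days (0), villus at 180 ppm and 90 days (1), and the crypt trend at 7 days (1), 4 for the villus trend at 90 days (2). With the villus of mouse 48 and the crypt of mouse 49 left out, the count was 0 for villus at 1.4 ppm and 7 days (3) and the crypt trend at 7 days (1), 1 for crypt at 180 ppm and 90 days (0), villus at 180 ppm and 7 days (2), and villus at 5 ppm and 90 days (0), 2 for villus at 180 ppm and 90 days (1), 4 for untreated crypt against villus at 7 days (0). With mouse 90 left out, the count was 2 for the crypt trend at 7 days (1). With the crypt of mouse 5, the villus of mouse 84, and the crypt of mouse 448 left out, an alternative chosen after the data were seen, the count was 2 for crypt at 60 ppm and 90 days (1). With the mouse as a replicate block (pairing), the count was 1 for the compartment interaction at 90 days (0), 2 for the compartment interaction at 7 days (0), 4 for untreated crypt against villus at 7 days (0). With the mouse as a replicate block, and the villus of mouse 48 and the crypt of mouse 49 left out, also chosen after the data were seen, the count was 1 for the compartment interaction at 7 days (0) and the compartment interaction at 90 days (0), 4 for untreated crypt against villus at 7 days (0). With a threshold of 0.05, the count was 0 for villus at 1.4 ppm and 7 days (3), 1 for villus at 180 ppm and 7 days (2) and the crypt trend at 90 days (2). With trend scores in ppm, the count was 0 for the crypt trend at 7 days (1), 1 for the crypt trend at 90 days (2). The Lgr5 correlations past the threshold numbered 2 (4) with prior count of 0.5, DESeq2 size factors, and without the crypt library of mouse 49. Leaving out each library of the untreated and 180 ppm groups in turn gave 0 to 1 for the compartment interaction at 7 days (0), 0 to 1 for crypt at 180 ppm and 7 days (0), 0 to 1 for crypt at 180 ppm and 90 days (0), 0 to 2 for the crypt trend at 7 days (1), 1 to 2 for the crypt trend at 90 days (2), 0 to 3 for untreated crypt against villus at 7 days (0), 1 to 2 for villus at 180 ppm and 7 days (2), and 0 to 2 for villus at 180 ppm and 90 days (1). Over these settings the direction of every called member stood: 1105 values kept their call and 72 lost it, and with 1 library left out 143 kept it and 22 lost it. Of the counts, 368 stayed within 1.5 times the reported count and 74 did not, and with 1 library left out these were 138 and 33. The mouse as a block was run on the comparisons between compartments and their interactions, where it lost the call of 1 member (Znrf3 at 5 ppm and 7 days), and not on the comparisons with controls or the trends. Lgr5, Ascl2, Sox9, and villus Znrf3 were read with few counts, so a difference in them that was not called may lie below what this depth can show.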
